A study of Mus musculus with 6 samples.

Results

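The 10 genes described here are members of the Bcl2 family, which sets the threshold for death through the mitochondria: Bcl2, Bcl2l1, Mcl1, Bax, Bak1, Bad, Bid, Bcl2l11, Bbc3 and Pmaip1. They were chosen by name, and were 10 of the 21911 protein-coding genes examined. A gene was called marked in a list when a peak of H3K4me3 lay within 1 kb of any of its transcript starts in the GENCODE M21 annotation of the mouse. H3K4me3, histone H3 trimethylated at lysine 4, marks chromatin at active promoters.

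The data were 6 lists of H3K4me3 ChIP-Seq peaks, with 1 list for each condition, from STHdh cells, which are striatal neuronal progenitor lines of the mouse strain C57BL/6. Q7SST came from wild type STHdhQ7 cells with vehicle and Q111SST from STHdhQ111 cells, which carry an expanded polyglutamine stretch in huntingtin, also with vehicle. The other 4 lists came from STHdhQ111 cells given cyproheptadine, loxapine, diacylglycerol kinase inhibitor II (DKI) or meclizine at 10 uM. All cells, controls included, spent 24 hours in medium without serum. Each genotype was a single cell line, so genotype cannot be told apart from any other difference between the lines. Treatment was in triplicate by the design text, but how the replicates entered the lists is not given in the sources used here, so no spread between replicates could be had and conditions were not tested against each other. Every comparison below is of 1 list with 1 list, and all 5 comparisons share the Q111SST list.

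The Bcl2 family decides whether the outer membrane of the mitochondrion stays intact. Bax and Bak1 are the effectors that open it, and Bcl2, Bcl2l1 and Mcl1 are the pro-survival members that hold them in check. The BH3-only members Bad, Bid, Bcl2l11, Bbc3 and Pmaip1 carry signals such as growth factor withdrawal, DNA damage or receptor activation to both. Several of these genes, Bcl2l11 and Bbc3 among them, are known to be controlled at transcription when cells lose growth factors.

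The sequence before the start of transcription is shown for 4 members, chosen after their values were seen: Bcl2 and Bcl2l11, which had the widest ranges of strength, and Mcl1 and Bbc3, whose peaks lay away from the start. Bcl2 and Bcl2l11 had a peak over or partly over this stretch in all 6 lists, Mcl1 had only its outer part covered in 5 lists and none of it with loxapine, and Bbc3 had no peak over it in any list. Each line gives the 250 bases before a RefSeq start on build GRCm38.p6, from 5′ to 3′ on the strand of the gene, with no annotated exon inside. Capitals mark letters searched for on both strands: the GC box (GGGCGG), the CCAAT box (CCAAT), the TATA box (TATAAA), the E-box (CACGTG), the cAMP response element (TGACGTCA) and the forkhead site (GTAAACA).
Bcl2, chr1:106714291-106714540, minus strand: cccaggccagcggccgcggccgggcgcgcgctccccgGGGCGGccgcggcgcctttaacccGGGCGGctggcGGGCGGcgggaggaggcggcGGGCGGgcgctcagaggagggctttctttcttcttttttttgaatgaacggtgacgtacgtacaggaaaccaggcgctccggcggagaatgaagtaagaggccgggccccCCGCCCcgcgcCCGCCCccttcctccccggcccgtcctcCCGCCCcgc
Mcl1, chr3:95658471-95658720, plus strand: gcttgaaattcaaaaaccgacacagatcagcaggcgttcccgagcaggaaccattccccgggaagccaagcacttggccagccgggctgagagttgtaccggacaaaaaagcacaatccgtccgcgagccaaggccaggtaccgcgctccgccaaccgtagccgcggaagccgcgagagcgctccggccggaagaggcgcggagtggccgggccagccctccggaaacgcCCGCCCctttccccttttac
Bcl2l11, chr2:128125788-128126037, plus strand: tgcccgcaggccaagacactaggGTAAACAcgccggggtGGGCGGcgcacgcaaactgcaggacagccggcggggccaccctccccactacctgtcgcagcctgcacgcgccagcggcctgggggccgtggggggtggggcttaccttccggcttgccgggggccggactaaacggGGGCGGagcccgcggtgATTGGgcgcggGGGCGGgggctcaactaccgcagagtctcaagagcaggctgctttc
Bbc3, chr7:16309333-16309582, plus strand: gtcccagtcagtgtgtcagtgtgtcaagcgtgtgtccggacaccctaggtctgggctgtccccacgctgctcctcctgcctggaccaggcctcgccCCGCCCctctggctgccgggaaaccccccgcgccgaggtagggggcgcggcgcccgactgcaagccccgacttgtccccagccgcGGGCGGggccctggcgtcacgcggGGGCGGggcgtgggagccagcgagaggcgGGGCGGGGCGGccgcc

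These windows, lengthened by 50 bases past the start, were rich in G and C. RefSeq gave such a window for 9 of the 10 members, Pmaip1 being the exception. Of these, 8 were above the median GC content (57.0%) of the 20150 windows of coding genes, and 8 were above the median ratio of observed to expected CpG (0.588). The windows of Bcl2 and Bbc3 both had 76.0% G and C, and the windows of Bcl2l1 and Bak1 had 52.3% and 58.3%. A GC box lay in 7 of the 9 member windows and in 47.8% of all windows. Bcl2 had the most copies at 7, 2 of the 5 copies in Bbc3 overlapped by 1 base, and Bcl2l1 and Bak1 had none. The CCAAT box, found in 37.8% of all windows, lay in Bcl2l11 alone, and the TATA box, found in 12.1%, lay in no member. Bcl2l11 was also the only member with a forkhead site (2.96% of all windows), and Bax the only member with an E-box (8.03%), next to its start. No member held the cAMP response element (2.31%) or the p53 response element (0.0447%) in these windows. A match shows that the letters are there, not that a factor binds.

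All 10 members were marked in all 6 lists. Among all coding genes, 59.9% were marked in Q7SST and 58.4% in Q111SST, 55.4% with cyproheptadine and 58.1% with loxapine, and 55.8% with DKI and 58.6% with meclizine. All 6 lists marked 53.5%. Presence of the mark did not separate pro-survival from pro-death genes, nor one condition from another. The lists held 30758 peaks (DKI) to 45564 peaks (loxapine). The deposited scores carry no stated scale, so strength is given as a percentile: the share of all peaks in the same list that the member's strongest peak outranks. Width is the length of that peak in bp. The read depth behind the lists is unknown.

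The cell labels were set against marker genes. Of 9 progenitor markers, 5 were marked in all 6 lists, Dlx1 among them at percentiles from 88.6 to 92.6. Gsx2, a marker of ventral forebrain progenitors, had a weak peak in Q7SST (percentile 2.76) and none in the other lists. None of 6 striatal projection neuron markers was marked in every list. In Q7SST 4 of them were marked (Ppp1r1b, Bcl11b, Rgs9 and Adora2a, at percentiles from 28.3 to 80.8), in Q111SST, loxapine and meclizine 2, and with cyproheptadine and DKI 0, while the dopamine receptor genes Drd1 and Drd2 were unmarked in all 6. Of 10 glial markers, 1 (Slc1a3) was marked in every list and 6 in none, and the astrocyte marker Gfap was unmarked in Q7SST and marked in the 5 lists of mutant cells at percentiles from 32.6 to 54.7. The part of these marker differences in the results was not tested.

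The 10 members as a group had wide and rather weak peaks. By its median over the 6 lists, the peak was weaker than that of the median marked gene for 8 of the members and wider for 8. Both held for 7 members, against 25.1% of the 11713 genes marked in every list. Strength and width are not independent of each other among promoters. In Q111SST, the median percentile was 47.2 in the narrowest decile of marked promoters, 87.8 in the fifth decile and 76.9 in the widest decile. Bak1 and Bad were the exceptions in strength, each at a percentile of 88.5 or more in every list. Pmaip1 was the weakest of the 10 members in all 6 lists. There being 1 value per list, neighbours in the order of strength cannot be set against a spread.

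**Figure D1:**
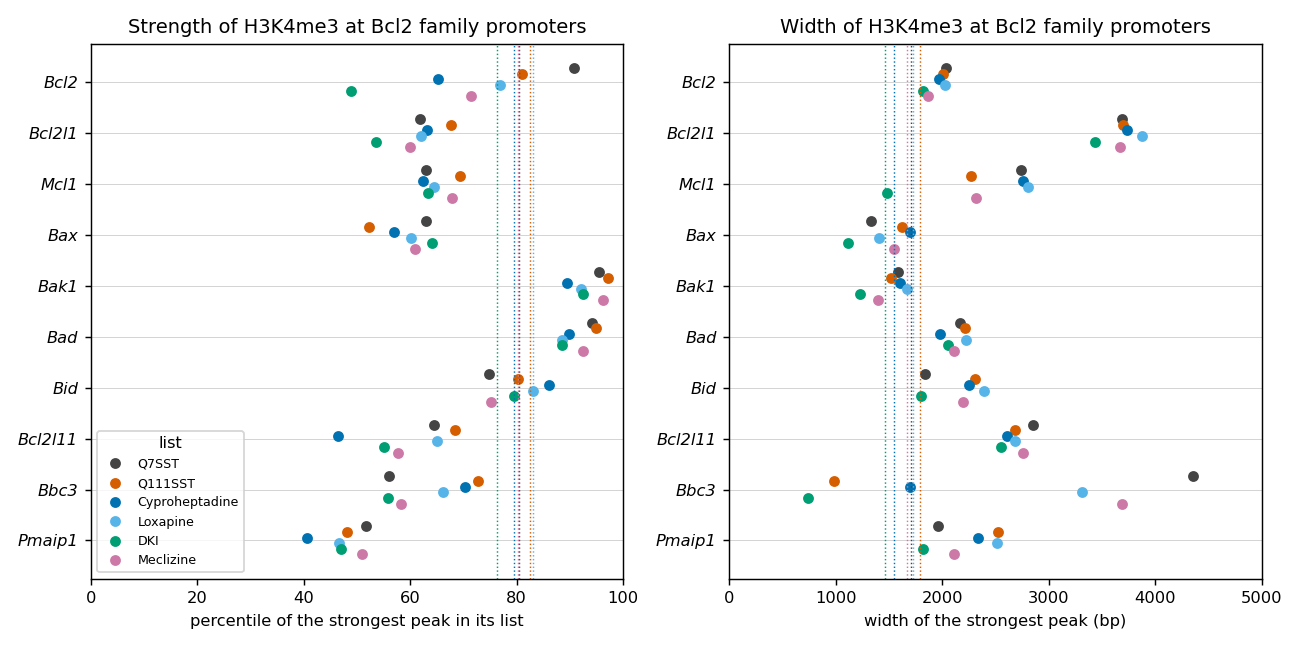
Strength (left, percentile of the strongest peak among all peaks of its list) and width (right, bp) of the H3K4me3 peak at each of the 10 genes, 1 point per list, with dotted lines at the median marked coding promoter of each list. Bak1 and Bad lie at the right of the strength panel in all lists, Bcl2 spreads from 48.9 to 90.7, and the widths of Bbc3 spread from 735 to 4357 bp.

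Bcl2, the founding pro-survival member, varied most in strength among the 10 members. The gene (ENSMUSG00000057329.7) lies on the minus strand of chromosome 1 from 106538178 to 106714274 in build mm10, and in each list 1 peak covered both of its starts. In Q111SST the peak spanned chr1:106713012-106715020, with 37.1% of its length upstream of the gene and the rest over untranslated exon sequence. Its strength stood at percentile 90.7 in Q7SST and 81.0 in Q111SST, 65.2 with cyproheptadine and 76.8 with loxapine, and 48.9 with DKI and 71.4 with meclizine. The wild type list was the highest and the DKI list the lowest. Its range of 41.8 points was reached or passed by 4.42% of the 11713 genes marked in every list. The width of the peak varied little, being 2039 bp in Q7SST and 2009 bp in Q111SST, 1967 bp with cyproheptadine and 2029 bp with loxapine, and 1815 bp with DKI and 1869 bp with meclizine. The same stretch of chromatin was called in every list, GC boxes included, while its rank in the list differed.

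The 3 coding genes with strengths most like those of Bcl2 over the 6 lists were Rhot2, Pik3c3 and Shisa4. Their root mean square differences from Bcl2 were 3.03, 3.53 and 3.60 percentile points. Rhot2, which encodes a mitochondrial GTPase, stood at 85.3 in Q7SST and 51.7 with DKI.

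Bcl2l1 encodes Bcl-xL, the pro-survival member that binds Bax and Bak1 at the mitochondrion. The gene (ENSMUSG00000007659.18; chromosome 2, 152780668 to 152831728, minus strand) has 9 annotated transcript starts. Its strength was percentile 61.9 in Q7SST and 67.6 in Q111SST, 63.1 with cyproheptadine and 62.0 with loxapine, and 53.5 with DKI and 59.9 with meclizine. The values lay close together apart from the lower DKI list. The peak was one of the widest of all promoters, at 3691 bp, 3695 bp, 3735 bp, 3876 bp, 3430 bp and 3670 bp in the same order of lists, and 99.4% of genes marked in every list had a narrower median. It lay wholly downstream of the outermost start. Its upstream edge fell 1 to 73 bp inside the gene and its other edge 3468 to 3948 bp inside, so that no base of the 250 before the outermost start was under a peak in any list. Of the 9 starts, 7 lay under the peak in 5 lists and 8 with meclizine.

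Mcl1 encodes a short-lived pro-survival protein. The gene (ENSMUSG00000038612.16; chromosome 3, 95658788 to 95663176, plus strand) was marked on both sides of its start but not over it. A narrow peak ended 197 to 331 bp upstream of the start, and a wider and stronger peak began 788 to 858 bp downstream. Neither of the 2 Mcl1 starts lay under a peak in any list, a layout shared by 4.80% of the genes marked in every list. The innermost part of the Mcl1 sequence shown above, with its GC box, lay in the gap, and 0 (loxapine) to 121 (meclizine) of its 250 bases were covered.

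The strength of the stronger Mcl1 peak was percentile 63.0 in Q7SST and 69.3 in Q111SST, 62.4 with cyproheptadine and 64.5 with loxapine, and 63.4 with DKI and 67.9 with meclizine. These 6 values span 6.94 points, less than the 14.4 points of the median gene. Width differed more, at 2738 bp in Q7SST and 2266 bp in Q111SST, 2762 bp with cyproheptadine and 2807 bp with loxapine, and 1480 bp with DKI and 2313 bp with meclizine. The DKI peak was the narrowest and ended 2300 bp past the start, against 3097 bp in Q111SST.

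Bax, an effector that moves from the cytosol to the mitochondrion, had its weakest peak in mutant cells with vehicle. The gene (ENSMUSG00000003873.11; chromosome 7, 45461697 to 45466898, minus strand) had 1 peak, spanning chr7:45465793-45467417 in Q111SST and covering all 6 starts there. Its strength was percentile 63.0 in Q7SST and 52.3 in Q111SST, 56.9 with cyproheptadine and 60.2 with loxapine, and 64.1 with DKI and 61.0 with meclizine. The wild type and DKI lists had the highest values. The widths were 1327 bp in Q7SST and 1625 bp in Q111SST, 1698 bp with cyproheptadine and 1403 bp with loxapine, and 1110 bp with DKI and 1546 bp with meclizine. The 2 lists with the strongest Bax peak were those with the narrowest one.

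Bak1, the effector that resides on the mitochondrial membrane, had the strongest peak of the 10 members in 5 of the lists. The gene is ENSMUSG00000057789.14, on the minus strand of chromosome 17 from 27019810 to 27029009. Strength was percentile 95.4 in Q7SST and 97.1 in Q111SST, 89.5 with cyproheptadine and 92.1 with loxapine, and 92.4 with DKI and 96.2 with meclizine. The peak was 1231 bp (DKI) to 1667 bp (loxapine) wide, began 92 to 400 bp inside the outermost start and was mostly intronic, with 1303 of 1518 bp over intron in Q111SST. A start of a neighbouring gene on the other strand, Ggnbp1, lay 342 to 650 bp from it, and a peak cannot be assigned to one of the genes.

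Among the BH3-only members, Bad senses growth factor signalling through its phosphorylation. The gene (ENSMUSG00000024959.14; chromosome 19, 6941861 to 6951899, plus strand) had 2 peaks in every list. Of the genes marked in every list, 9.49% had 2 or more peaks throughout. The peak at the main start was shared with Gpr137, whose start lies under it on the other strand. It stood at percentile 83.8 in Q7SST and 79.7 in Q111SST, 71.5 with cyproheptadine and 74.8 with loxapine, and 62.7 with DKI and 77.9 with meclizine. The stronger peak lay at the far end of the gene, beginning 8466 to 8623 bp past the main start, where 2 further transcripts start. It stood at 94.1, 95.0, 89.9, 88.5, 88.5 and 92.5 in the same order of lists, and 28.3% to 30.7% of its length lay beyond the end of Bad. The values of Bad given by the strongest peak are therefore those of a peak away from its main promoter. The main promoter peak was weakest with DKI, and the far peak differed less between the lists.

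Bid links death receptors to the mitochondrion. The gene (ENSMUSG00000004446.12; chromosome 6, 120891930 to 120916853, minus strand) had strengths of percentile 74.9 in Q7SST and 80.3 in Q111SST, 86.1 with cyproheptadine and 83.0 with loxapine, and 79.6 with DKI and 75.1 with meclizine. The cyproheptadine list was the highest, and all differences from Q111SST were under 10 points on this scale. The difference with cyproheptadine, 5.72 points, became 10.5 in lists of equal size, 10.2 with scores at or above the pooled median and 20.7 ranked among promoters, where that with DKI became 11.9. The peak was narrowest with DKI (1804 bp) and in Q7SST (1838 bp), and 2196 to 2394 bp wide in the other 4 lists. The start of another annotated gene on the same strand, Gm44260, lay 331 to 770 bp from it.

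Bcl2l11 encodes Bim, an activator of Bax and Bak1 that is induced when growth factors are withdrawn. The gene is ENSMUSG00000027381.16, on the plus strand of chromosome 2 from 128126038 to 128162547. Its strength was percentile 64.5 in Q7SST and 68.5 in Q111SST, 46.5 with cyproheptadine and 65.1 with loxapine, and 55.1 with DKI and 57.8 with meclizine. Cyproheptadine gave the lowest value and loxapine a value between those of the vehicle lists. The peak kept its extent in all lists, 2547 bp (DKI) to 2850 bp (Q7SST), and covered all 6 distinct starts. At least 176 of the 250 bases shown above lay under it in every list. The forkhead letters, 227 bases before the RefSeq start, lie in the part that was outside the peak in Q111SST and with DKI.

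Bbc3 encodes Puma, an activator known as a target of p53. It differed most in the shape of its peaks. The gene is ENSMUSG00000002083.13, on the plus strand of chromosome 7 from 16308393 to 16318205. The mark lay inside the gene, from 284 bp past the main start at the nearest, and the stretch shown above, with its GC boxes, was uncovered in all 6 lists. In Q7SST 1 peak ran from 286 to 4642 bp past the start, with loxapine 1 peak from 1352 to 4664 bp, and with meclizine 1 peak from 287 to 3973 bp. In the other 3 lists the domain was called as 2 peaks. These ran from 284 to 2166 and 2957 to 3937 bp in Q111SST, from 1382 to 2091 and 2952 to 4651 bp with cyproheptadine, and from 1380 to 2114 and 2940 to 3979 bp with DKI. The gap was at the same place in all 3, and 16.1% of genes marked in every list had 1 peak in some lists and 2 or more in others.

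The strongest Bbc3 peak measured 4357 bp in Q7SST and 981 bp in Q111SST, 1700 bp with cyproheptadine and 3313 bp with loxapine, and 735 bp with DKI and 3687 bp with meclizine. The widest was 5.93 times the narrowest, a ratio reached by 2.42% of genes. Summed over all peaks near a Bbc3 start, the covered length in Q7SST was 1.52 times that in Q111SST. It was 0.841 times with cyproheptadine and 1.16 times with loxapine, and 0.620 times with DKI and 1.29 times with meclizine. When peaks within 1 kb of each other were joined, no width change past 1.5-fold was left for Bbc3. Its strength was percentile 56.1 in Q7SST and 72.8 in Q111SST, 70.3 with cyproheptadine and 66.2 with loxapine, and 55.9 with DKI and 58.3 with meclizine. The highest value was that of mutant cells with vehicle, and it belonged to the peak that starts 2957 bp inside the gene, over the start of a retained-intron transcript. With starts of protein-coding transcripts only, the peak used changed, the difference between Q7SST and Q111SST became -8.59 points, and that between cyproheptadine and Q111SST became -19.2 points.

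Pmaip1 encodes Noxa, which binds Mcl1. The gene is ENSMUSG00000024521.8, on the plus strand of chromosome 18 from 66458533 to 66465565, and its peak covered all 3 starts in every list. Strength was percentile 51.7 in Q7SST and 48.2 in Q111SST, 40.6 with cyproheptadine and 46.7 with loxapine, and 47.0 with DKI and 50.9 with meclizine. These values were low, within 11.1 points of each other, and 4.64% of genes marked in every list had a lower median. Its width ran from 1821 bp (DKI) to 2519 bp (Q111SST). With starts within 5 kb another peak was taken for some lists, and its differences from Q111SST turned from 3.46 to -13.0 points in Q7SST and from 2.65 to -13.8 points with meclizine. The ratios of width became 4.90 and 5.27.

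**Figure D2:**
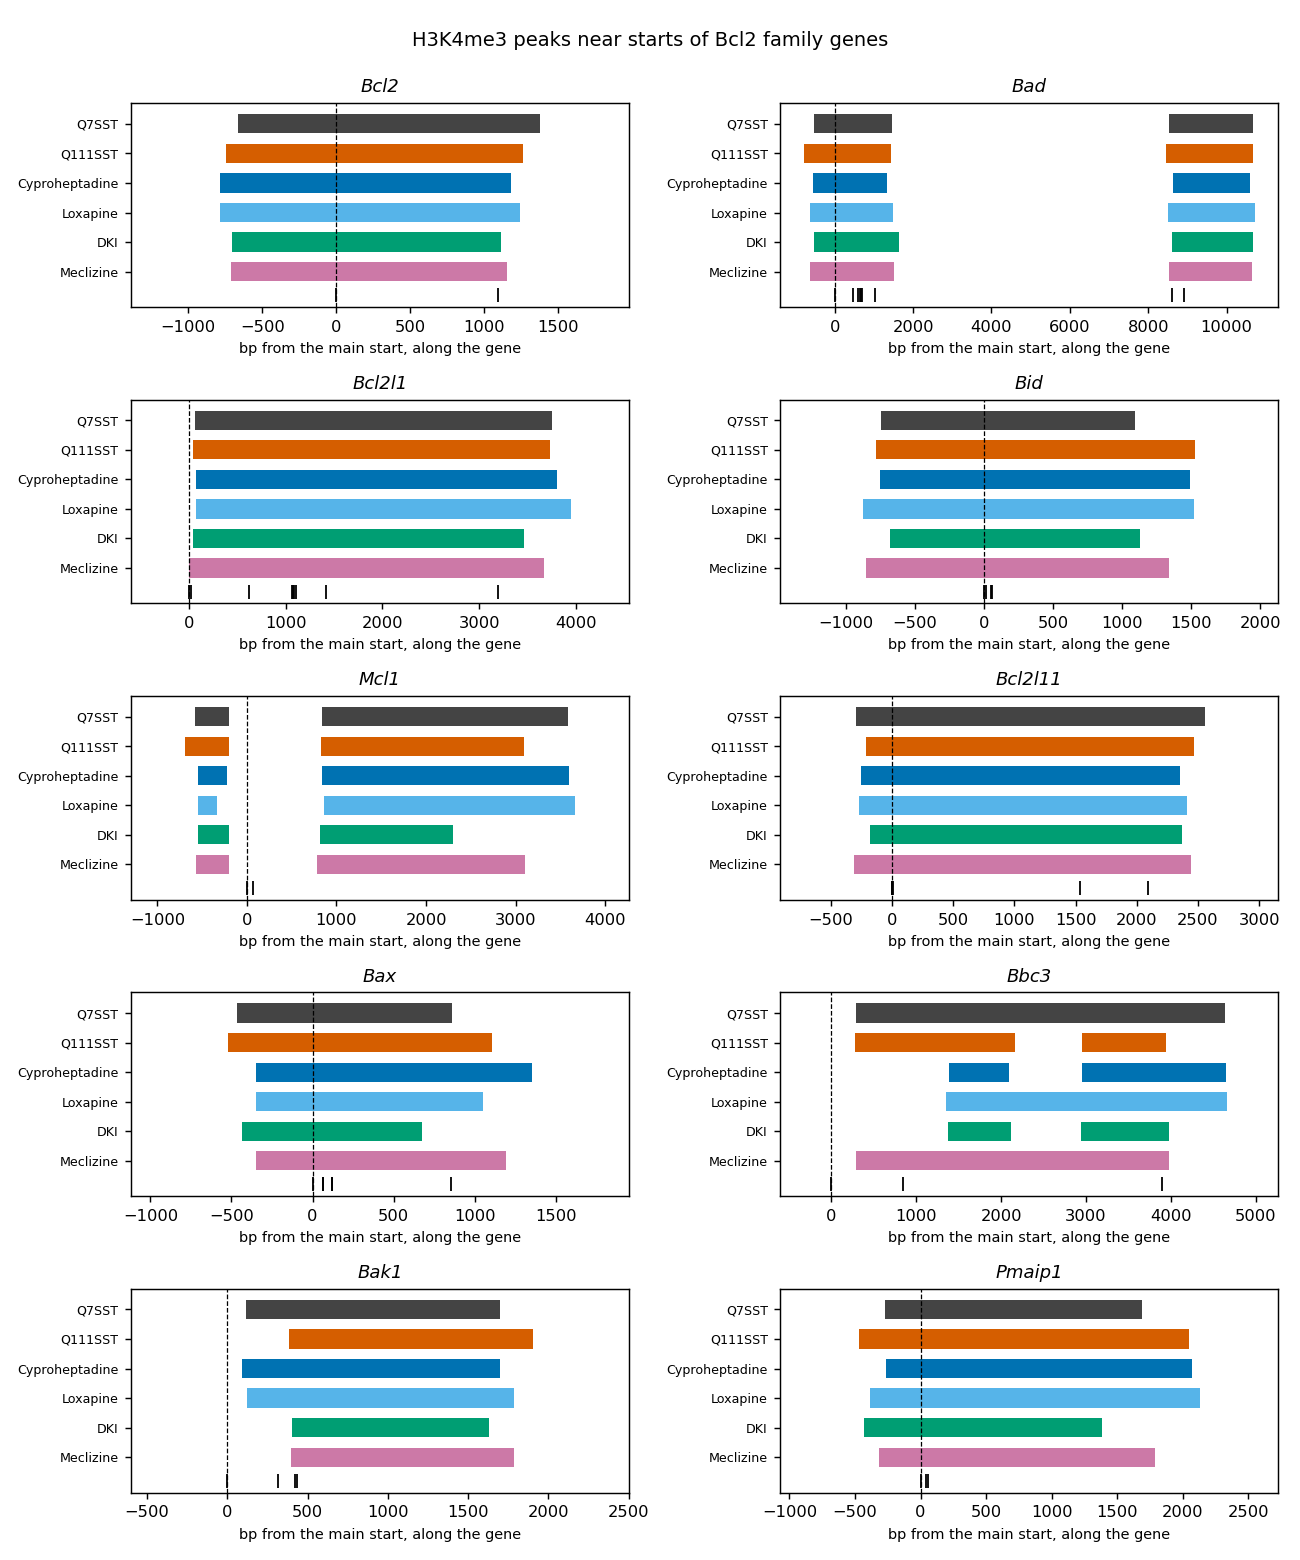
Extent of each H3K4me3 peak within 1 kb of a start, in bp from the main start along the gene (dashed line), 1 bar per peak and 1 row per list, with ticks at other annotated starts inside the plotted range. Mcl1 has a gap at its start in all 6 lists, Bad has a peak at each end of the gene, and the Bbc3 domain is split in Q111SST, cyproheptadine and DKI.

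The wild type and mutant lines were compared first, both with vehicle. A change of 10 percentile points, or of 1.5-fold in width, was used as a fixed size in place of a test. In Q7SST, Bax was 10.7 points higher than in Q111SST and Bbc3 16.7 points lower, while Bcl2 was 9.68 points higher and fell short of that size. Bcl2 passed it at 10.7 points relative to the median promoter, 13.3 points in lists of equal size, 22.6 points among peaks with scores at or above the pooled median and 29.7 points ranked among promoters. These were 2 of 10 members past 10 points, with 21.8% of the 12335 genes marked in both lists past it in either direction. Bbc3 was the one member past 1.5-fold in width, at 4.44 times its Q111SST width, and 12.7% of genes passed. Its whole domain had a ratio of 1.52 summed over peaks and 1.19 with peaks joined. The median change was -2.86 points over the members and -1.04 points over all genes.

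Cyproheptadine, an antihistamine that also blocks serotonin receptors, was compared with vehicle in mutant cells. Bcl2l11 was 21.9 points lower and Bcl2 15.8 points lower, and no other member passed 10 points. Among all genes 29.4% passed, and 5.89% had a lower change than Bcl2l11. The strongest peak of Bbc3 was 1.73 times as wide, with 17.0% of genes past 1.5-fold, but its whole domain was the narrower one, at 0.841 of the Q111SST length summed over peaks and 0.895 with peaks joined. With starts of protein-coding transcripts the ratio of its strongest peak was 0.377. The median change was -6.05 points over the members and -3.74 points over all genes. In lists cut to equal size the members' median change was 0.582 points. There Bcl2 and Bcl2l11 were at -13.2 and -17.2 points, Bax and Bid passed 10 points the other way at 15.4 and 10.5, and 27.3% of all genes passed.

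With loxapine, an antipsychotic, no member differed by 10 points, and 16.5% of all genes did. In lists cut to equal size, 6 members did (Bcl2l1, Mcl1, Bad, Bcl2l11, Bbc3 and Pmaip1, each 10.3 to 14.3 points lower), and 29.2% of all genes. Ranked among promoters, the largest member changes were those of Bad (21.3 points lower) and Bak1 (16.9 points lower). On the full lists they were those of Bax (7.89 points higher) and Bbc3 (6.55 points lower). With starts of protein-coding transcripts Bbc3 turned to 1.59 points higher. Bbc3 alone passed in width, at 3.38 times the Q111SST value for its strongest peak, with 11.0% of genes past 1.5-fold. Over its whole domain the ratio was 1.16 summed over peaks and 0.907 with peaks joined. The members had a median change of -4.52 points, and all genes one of -0.352 points.

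In the DKI list, Bcl2 was 32.1 points lower, Bbc3 16.8 points lower, Bcl2l1 14.1 points lower and Bcl2l11 13.4 points lower, while Bax was 11.8 points higher. These 5 of 10 members stand beside 42.3% of all genes past 10 points, so the count was near the background. Within that background Bcl2 lay far down, with 3.62% of genes having a lower change, and Bax far up, with 2.73% having a higher one. The changes of Bcl2l1, Bcl2l11 and Bbc3 were less far out, with 27.4%, 28.9% and 20.8% of genes lower. The strongest Bbc3 peak with DKI lay at another place than that in Q111SST. With starts of protein-coding transcripts Bbc3 was at -8.71 points, and the width of its strongest peak at 0.390 of that in Q111SST. All 10 members had narrower peaks than in Q111SST, as 91.9% of all genes had, with a median ratio of 0.796 beside 0.833 for all genes, and 1 of them (Mcl1, at 0.653 of its Q111SST width) passed 1.5-fold, as did 20.1% of genes. The median change over the members was -6.23 points, beside -6.57 points over all genes. In lists cut to equal size, Bcl2l1, Bcl2l11 and Bbc3 were within 10 points of Q111SST, at -3.92, -3.50 and -8.31 points, and Bcl2 was at -26.1 points. There Pmaip1, at -1.18 points on the full lists, was at 15.1 points, and 32.7% of all genes passed 10 points.

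With meclizine, an antihistamine used against motion sickness, Bbc3 was 14.4 points lower and Bcl2l11 10.7 points lower. With starts of protein-coding transcripts Bbc3 was at -6.31 points. Bcl2l11 was at -9.12 points relative to the median promoter, -9.07 points with scores at or above the pooled median and -6.51 points ranked among promoters. With 2 of 10 members past 10 points, 14.2% of all genes passed. Bcl2 was 9.60 points lower, and passed 10 points in lists of equal size (-10.9), with scores at or above the pooled median (-11.2) and ranked among promoters (-14.0). Bax was 8.71 points higher, and passed at 13.8 in lists of equal size and 10.2 relative to the median promoter. The strongest peak of Bbc3 was 3.76 times as wide, with 8.41% of genes past 1.5-fold. Over its whole domain the ratio was 1.29 summed over peaks and 1.01 with peaks joined. The members had a median change of -3.88 points, beside -1.54 points for all genes.

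**Figure D3:**
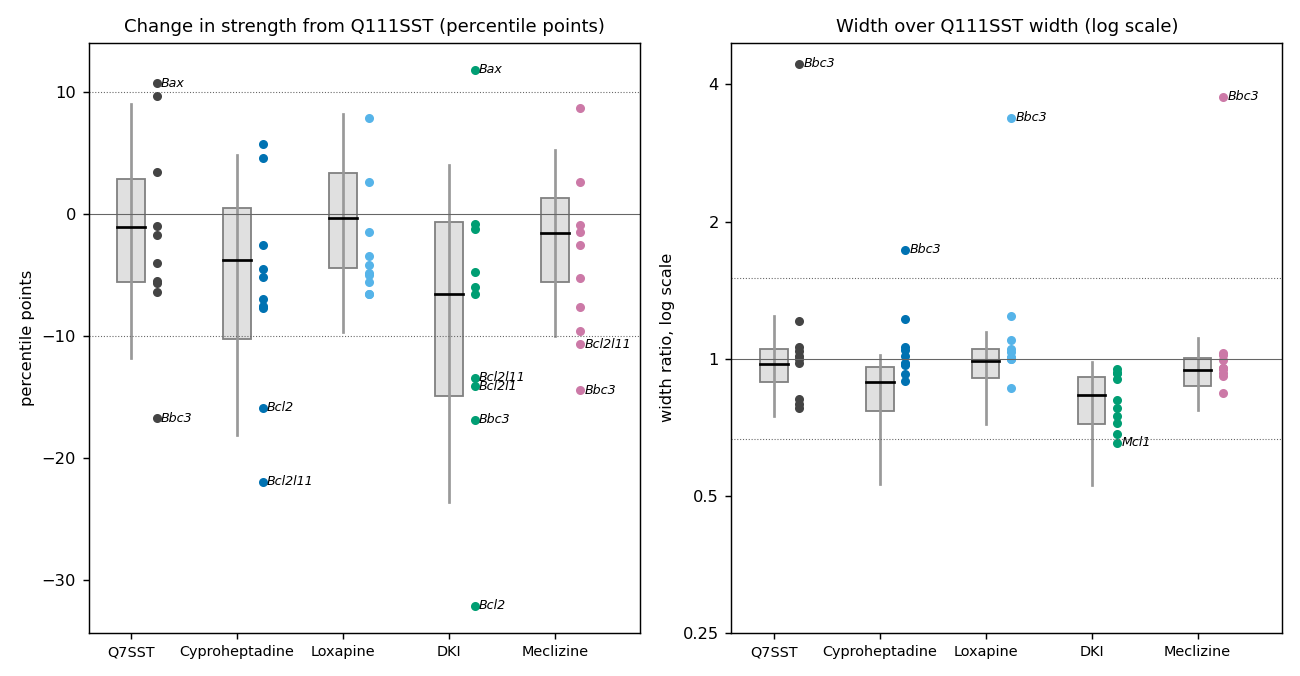
Change of each list from Q111SST in strength (left, percentile points) and width (right, ratio on a log axis), with 1 point per gene of the 10 and grey boxes (quartiles, median line, whiskers from the 10th to the 90th percentile) for all coding genes marked in both lists. Bcl2 with DKI lies 32.1 points down, Bax with DKI 11.8 points up, and Bbc3 stands above the other genes in width in 4 of the lists.

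The study placed cyproheptadine and loxapine in one group of compounds and DKI and meclizine in another. No member moved by more than 5 points up in both lists of one group and down in both of the other. Bid came nearest on the full lists, at 5.72 and 2.63 points higher with cyproheptadine and loxapine, and 0.780 and 5.22 points lower with DKI and meclizine. With DKI it turned to 5.38 points higher in lists of equal size, 11.9 ranked among promoters and 0.362 with scores at or above the pooled median. For Bcl2 the lower values were with cyproheptadine and DKI, 1 compound of each group, and for Bcl2l11 the lowest was with cyproheptadine. Loxapine, of the same group, had Bcl2l11 3.41 points lower than vehicle, and 10.3 points lower in lists of equal size, where cyproheptadine was at -17.2.

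The rest of the pathway was described from 3 lists of other genes. Of 15 further genes of the Bcl2 family, 8 were marked in all 6 lists and 6 in none: Bcl2l10, Bcl2a1a, Bcl2a1b, Bcl2a1d, Hrk and Bcl2l15. The remaining one, Bcl2l14, had weak peaks in Q111SST and with meclizine. Of 13 genes that act at or after the mitochondrion, such as Apaf1 and Cycs, 12 were marked in all lists, and of 8 regulators of the family 7 were. Trp73, a relative of p53, was marked in none.

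Bmf, a BH3-only gene known to respond to loss of attachment, stood near the top of 3 lists. Its strength was percentile 73.1 in Q7SST and 74.3 in Q111SST, 99.9 with cyproheptadine and 99.7 with loxapine, and 99.6 with DKI and 90.1 with meclizine. The strong peaks were also narrower, at 757 bp with cyproheptadine, 1351 bp with loxapine and 1538 bp with DKI, against 2585 bp in Q111SST and 2668 bp with meclizine. Bok, a relative of Bax and Bak1, had its highest value in Q111SST (73.6) and its lowest with DKI (47.0). Bik, a BH3-only gene of the endoplasmic reticulum, ranged from 29.0 with cyproheptadine to 74.8 with loxapine.

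Among the genes that act after the mitochondrion, Birc3, an inhibitor of apoptosis, was unmarked in Q7SST and stood at percentiles 72.6 to 83.4 in the 5 lists of mutant cells. Bnip3, which acts in removal of mitochondria and belongs to the wider family, stood at 48.2 in Q7SST, 71.5 in Q111SST and 49.9 with DKI. Past 10 points from Q111SST, 0 of the 27 other genes marked in both lists were higher and 1 (Bnip3) was lower in Q7SST, beside 21.8% of all genes past that size in either direction. With cyproheptadine 1 of 28 was higher and 6 were lower, beside 3.48% and 25.9% of all genes. With loxapine 4 of 28 were higher and 1 was lower, beside 7.10% and 9.41%. With DKI 1 of 28 was higher and 7 were lower, beside 3.55% and 38.8%, and with meclizine 2 of 29 were higher and 0 lower, beside 4.18% and 10.0%. The lower genes with cyproheptadine were Bok, Bik, Cycs, Diablo, Birc3 and Ddit3, and those with DKI were Bok, Bnip3, Birc5, Foxo1, Ddit3, Mapk8 and Mdm2. The higher genes with loxapine were Bik, Bmf, Apaf1 and Htra2. Foxo1, a forkhead factor that acts on several BH3-only genes, had a peak of 3646 bp in Q111SST and of 1093 to 1372 bp in the other 5 lists. Past 1.5-fold in width from Q111SST there were 1 wider (Ddit3) and 1 narrower (Foxo1) in Q7SST, and 1 wider (Xiap, at 1.62) and 2 narrower (Bcl2l14 and Foxo1) with meclizine. With cyproheptadine and with loxapine Bmf, Foxo1, Mapk8 and Mdm2 were narrower, and with DKI Bmf, Bnip3, Birc5 and Foxo1. Among all genes, 12.7% passed 1.5-fold in width in either direction in Q7SST and 8.41% with meclizine. The shares were 17.0% with cyproheptadine, 11.0% with loxapine and 20.1% with DKI.

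**Figure D4:**
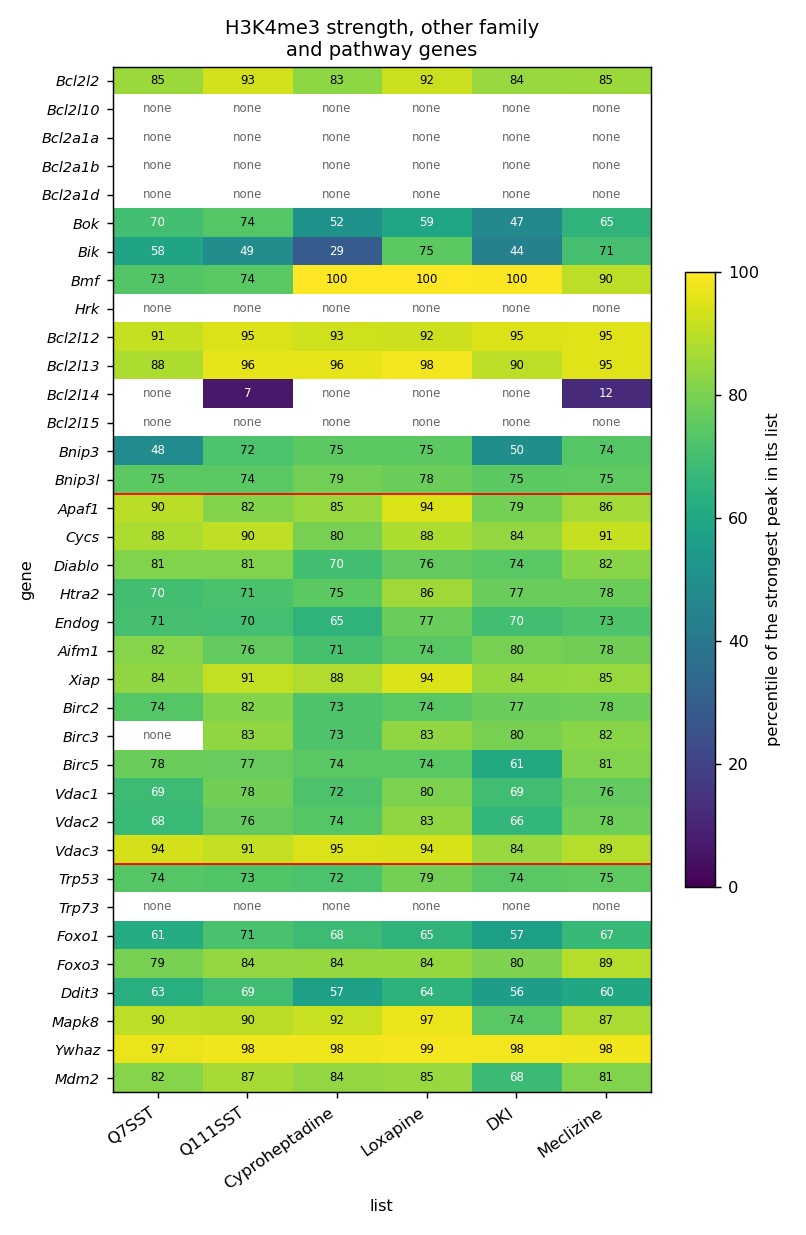
Strength (percentile of the strongest peak in its list, colour and number) of the 36 other genes in the 6 lists, in blocks for the wider Bcl2 family, genes that act at or after the mitochondrion and regulators of the family; white cells marked none had no peak within 1 kb of a start. Bmf stands at 74.3 in Q111SST and at 99.9 with cyproheptadine, and Birc3 is unmarked in Q7SST alone.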

How the data were processed

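H3K4me3 ChIP-Seq was performed by the study on chromatin digested with micrococcal nuclease, read as single ends. The submitters' processing notes name Trimmomatic 0.36, Bowtie2, SAMtools 1.3, MACS2 and build mm10, with no settings. The authors deposited 1 peak list per condition, each line giving a position and a whole-number score; the deposited score has no stated scale, its lowest value was 10 in each list, and it was used for ranks within a list. Input controls and the treatment of replicates are not given in the sources used here, and the depth is unknown. Groups were taken from the sample labels.

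Peak ends fitted within all 21 GRCm38 chromosomes checked (0 went beyond). Peaks within 1 kb of any transcript start in GENCODE M21 were assigned to the gene, and the strongest gave its percentile (mean rank for ties) and width. Python 3.11.15, pandas 2.3.3 and numpy 2.4.6 were used. On simulated data, a copy of the Q111SST list with its 12790 marked genes, 200 planted losses and 200 planted widenings were all recovered, with 0 other losses.

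The members, lists and sizes were chosen with earlier results of these data known. Named genes were all members, other pathway genes unmarked in a list or past 10 points or 1.5-fold, and the 3 genes most like the member that varied most. Cell type markers were named beside these. Alternatives changed the window, score threshold, list size, joining of peaks, starts, strength scale and width measure.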

Additional observations from a re-analysis of the deposited data

How the results depend on the processing

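All 10 members stayed marked in every list with starts within 5 kb, lists of equal size, joined peaks and starts of protein-coding transcripts. With a peak over the start itself 9 were marked, Mcl1 being lost, and with scores at or above the pooled median of 47 there were 8 to 10. With 1 list per condition no call has an error, and the cause of the shifts below was not tested. No paired analysis was possible because there was a single list for every condition. In DKI, Bcl2 stayed past 10 points lower wherever it was marked in both lists, from -25.5 to -32.1 points, but its peak there fell below the score of 47. With cyproheptadine its change ran from -12.1 to -38.2 points. Bax with DKI stayed higher, from 11.7 to 26.8 points, where it was marked.

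The counts of members past 10 points in strength changed as follows, with the share of all genes past it at the same setting in brackets. With lists cut to 30758 peaks each they were 3 with DKI (32.7%), 4 with meclizine (17.9%), 6 with loxapine (29.2%) and 4 with cyproheptadine (27.3%). With scores at or above the pooled median they were 6 with cyproheptadine (53.2%) and 2 with loxapine (37.0%), and with strength ranked among promoters 5 (43.3%) and 2 (35.9%). The counts at the pooled median are not out of 10. There Bax and Pmaip1 had no value with either compound, and Bcl2l11 none with cyproheptadine. Starts of protein-coding transcripts gave 1 in Q7SST (21.6%) and 1 with meclizine (14.1%). Taken relative to the median promoter, an alternative chosen after seeing the data, DKI had 3 (32.7%).

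For width past 1.5-fold, joined peaks left 0 members in Q7SST, with cyproheptadine and with loxapine. Summed peaks left 0 with cyproheptadine (16.8%), loxapine (8.27%) and meclizine (6.75%), and 2 with DKI (20.3%). Starts within 5 kb gave 2 in Q7SST (14.8%), with DKI (21.8%) and with meclizine (9.94%). Starts of protein-coding transcripts gave 2 with DKI (19.9%). A peak over the start gave 0 with DKI (14.1%), as did the scale relative to the median promoter (13.6%).

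The median change of the members turned positive in 2 cases, to 0.582 points with cyproheptadine in lists of equal size and to 0.347 points with DKI relative to the median promoter. On the latter scale it was -1.82 in Q7SST, -2.31 with cyproheptadine and -2.35 with meclizine. Lists of equal size gave -10.4 with loxapine and -3.66 with DKI. A peak over the start gave -1.74 in Q7SST, -5.16 with cyproheptadine and -5.22 with meclizine. Starts within 5 kb gave -4.71 in Q7SST, -4.84 with cyproheptadine, -7.61 with DKI and -6.43 with meclizine. Scores at or above the pooled median gave -14.6 with cyproheptadine, -7.89 with loxapine and -12.6 with DKI. Starts of protein-coding transcripts gave -7.25 with cyproheptadine and -3.80 with loxapine. Ranks among promoters gave -1.24 in Q7SST, -2.75 with DKI, -4.63 with meclizine, -1.61 with cyproheptadine and -3.17 with loxapine. The other counts stayed within 1.5-fold of those reported, though not always with the same members: with peaks joined, the 1 width call with meclizine was Mcl1 at 1.62, in place of Bbc3 at 1.01.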

Other observations

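H3K4me3 was also found inside 3 of the member genes, over 1 kb from any of their starts. Bcl2, whose second exon lies far from the first, held 3 such peaks in Q7SST and 2 in each other list. One lay 83.5 to 83.7 kb past the main start in every list, in chr1:106629006-106630785 in Q111SST. Its strength was percentile 80.4 in Q7SST and 82.3 in Q111SST, 80.0 with cyproheptadine and 78.3 with loxapine, and 75.4 with DKI and 81.0 with meclizine. This inner peak outranked the Bcl2 promoter peak in all 5 lists of mutant cells, by the most with DKI, where the promoter peak stood at 48.9, and by little in Q111SST and with loxapine, where it stood at 81.0 and 76.8. In Q7SST the promoter peak, at 90.7, was the stronger. A second peak lay 10778 bp past the start in Q7SST and 13014 to 13314 bp past it in the 5 lists of mutant cells.

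Bcl2l1 held 4 inner peaks in Q7SST and with meclizine, 5 with cyproheptadine, loxapine and DKI, and 6 in Q111SST. The one 45.3 to 45.4 kb past the start stood at percentile 32.6 in Q7SST and 55.5 in Q111SST, 62.4 with cyproheptadine and 53.6 with loxapine, and 68.6 with DKI and 62.1 with meclizine. The wild type list was the lowest of these. Bcl2l11 had 1 weak peak about 19.4 kb inside the gene in Q111SST and with loxapine, and 19.5 kb with meclizine, and none in the other lists. The other 7 members had no inner peak in any list. Bcl2, Bcl2l1 and Bcl2l11 are the longest members, at 176097, 51061 and 36510 bp, and the others are 4389 to 24924 bp long. The part of gene length in this difference was not tested.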
